A study of Mus musculus with 22 samples.

Results

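Rarres2, Mia, Cd24a, Prom1, Calml4, Hspa2 and Nnat were listed as genes enriched in ependymal cells without a part in motile cilia. They were chosen by symbol, with earlier results of these data known. The aim was to set an account of ependymal cell number beside the genes of cilia. All 7 were found among the 17306 genes of the table. All passed the filter on low values, which left 16765 genes for testing. The values came from RNA sequencing of ipsilateral quadrants of lumbar spinal cord (segments L4 to L6), which the paper describes as dorsal horn quadrants. The tissue was from 22 male wildtype C57BL6J mice, aged 12 to 14 weeks when collected. Every mouse had received 1 mg of monosodium iodoacetate (MIA, a compound that produces joint degeneration, not to be confused with the gene Mia) in the knee and was collected on day 30. Mice were given SAFit2, an inhibitor of the stress regulator FKBP51, at 100 mg/kg in a slow-release phospholipid gel, or the gel alone (Vehicle). The Early SAFit2 (n = 5) and Early Vehicle (n = 6) mice received gel around injury onset, on days -3 and 4 in the methods (days 3 and 4 in the sample protocol). The Late SAFit2 (n = 5) and Late Vehicle (n = 6) mice received gel on days 20 and 27. The titles of the 5 Early SAFit2 samples name SAFit1 whereas their treatment label is SAFit2, which was followed. The batch label is the same split as the timing, so batch and timing cannot be told apart.

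Ependymal cells line the central canal of the spinal cord. How much of the canal each dissected quadrant held is not stated. They carry motile cilia that beat into the cerebrospinal fluid, and building these cilia needs a large programme of axonemal dynein and radial spoke genes switched on by transcription factors such as Foxj1 and the Rfx family. The same cells also make secreted, surface and cytoplasmic products that are not of the axoneme. Genes of this other kind were set beside the cilia genes because a change in the number of cells bears on both. In bulk tissue, fewer cells of a type and less RNA per cell cannot be told apart.

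Several of the 7 are also made by other cells. Rarres2 encodes chemerin, a secreted chemoattractant that fibroblasts also make, and Mia encodes a small secreted protein first known from melanoma and cartilage. Cd24a encodes a glycosylated surface protein that young neurons also carry, and Prom1 encodes prominin, a membrane protein of cell protrusions. Calml4 encodes a calmodulin-like protein of microvilli. Hspa2 encodes a chaperone of the HSP70 family, and Nnat encodes neuronatin, an imprinted membrane proteolipid that is also found in neurons.

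In GRCm38 (GENCODE M21 annotation) Rarres2 lies at chr6:48569696-48572789 on the minus strand, overlapping Lrrc61 on the opposite strand. Mia lies at chr7:27179742-27181157 on the minus strand, where Gm21983 overlaps it on the same strand, so its reads could be shared between both genes. Cd24a lies at chr10:43578284-43584265 on the plus strand and Hspa2 at chr12:76404176-76406938 on the plus strand, with no overlapping gene. Prom1 lies at chr5:43993620-44102032 on the minus strand, overlapped by Gm42716 on the same strand and by the antisense gene Gm16401. Calml4 lies at chr9:62858080-62875921 on the plus strand, with the pseudogene Gm10653 opposite. Nnat lies at chr2:157560078-157562522 on the plus strand, opposite Blcap. The libraries were directional, but the strand setting used in counting is not given in the sources used here.

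The promoters were read for letters tied to the cilia programme, the X-box core GTTGCC read by Rfx factors and the forkhead core TGTTTAC read by Foxj1, on both strands of the 300 bases around each RefSeq gene start. GTTGCC stood in the windows of 25 of 58 motile cilia genes with a promoter (43.1%) and of 14.1% of the 27025 genes with one, and TGTTTAC in 5 of the 58 (8.6%) and 4.1% of genes. Neither stood in the windows of the 5 members that had one, Mia, Prom1, Calml4, Hspa2 and Nnat. Rarres2 and Cd24a were not among them. The 250 bases upstream of the RefSeq start (GRCm38.p6) are shown for Mia and Nnat, the members with the highest Pearson r with the cilia genes over all 22 mice, beside Ccdc153, the cilia gene with the lowest p in the average of both timings, and Ak7, the gene most like Mia, with motif letters in capitals. The windows are chr7:27181150-27181399 (minus strand) for Mia, chr2:157559828-157560077 (plus) for Nnat, chr9:44240427-44240676 (plus) for Ccdc153 and chr12:105705732-105705981 (plus) for Ak7.
Mia: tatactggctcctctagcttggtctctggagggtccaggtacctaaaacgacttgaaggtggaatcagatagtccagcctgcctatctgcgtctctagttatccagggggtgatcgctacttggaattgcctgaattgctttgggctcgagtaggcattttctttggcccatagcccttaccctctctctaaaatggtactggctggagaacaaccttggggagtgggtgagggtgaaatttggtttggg
Nnat: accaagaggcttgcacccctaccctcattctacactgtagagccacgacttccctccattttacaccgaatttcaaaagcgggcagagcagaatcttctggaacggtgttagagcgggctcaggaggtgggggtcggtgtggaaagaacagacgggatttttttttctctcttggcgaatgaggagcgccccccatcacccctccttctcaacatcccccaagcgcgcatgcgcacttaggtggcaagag
Ccdc153: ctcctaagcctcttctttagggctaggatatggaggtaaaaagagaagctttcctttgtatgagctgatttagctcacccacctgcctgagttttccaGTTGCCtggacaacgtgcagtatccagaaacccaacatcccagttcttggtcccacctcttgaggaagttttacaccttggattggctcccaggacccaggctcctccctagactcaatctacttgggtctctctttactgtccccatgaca
Ak7: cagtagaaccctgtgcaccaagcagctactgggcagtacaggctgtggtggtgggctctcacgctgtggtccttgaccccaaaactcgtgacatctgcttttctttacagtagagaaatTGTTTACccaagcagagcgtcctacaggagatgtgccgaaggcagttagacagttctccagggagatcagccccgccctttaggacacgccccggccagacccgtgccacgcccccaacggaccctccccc
Each cilia gene holds a match, GTTGCC in Ccdc153 and TGTTTAC in Ak7, and the windows of Mia and Nnat hold neither. A match describes letters only, and their absence from these windows says nothing about binding elsewhere.

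Between 11352989 and 24433349 reads fell on genes per library. Set per kilobase of transcript, mean levels over the 22 mice ordered as Nnat (log2 CPM per kilobase 5.95, percentile 94.3 of genes), Cd24a (5.27, percentile 90.3), Hspa2 (3.23, percentile 65.5), Prom1 (1.95, percentile 44.6), Rarres2 (1.59, percentile 39.3), Mia (1.26, percentile 35.1) and Calml4 (-1.25, percentile 12.7). The gaps from Prom1 to Rarres2 and from Rarres2 to Mia were smaller than the SD over mice of Rarres2 (0.57), while the gaps between the other neighbours were larger than it. Calml4 rested on 6 to 35 reads per library and Mia on 9 to 111, against 685 to 2867 for Nnat, so counting error weighs most on Calml4. The library of Late SAFit2 replicate 2 stood apart: the Schwann cell genes averaged -0.54 log2 CPM there and 4.07 to 6.91 in the other 21 libraries, and the meningeal fibroblast genes 1.80 against 3.31 or more. Its motile cilia genes averaged -0.57, against -0.37 to 1.56 in the others. Skeletal muscle genes averaged 4.55 and 4.12 in Late SAFit2 replicates 3 and 5 and no more than 0.80 elsewhere. Every member value below is log2 CPM, and fold changes and standard errors (SE) come from limma over all 22 mice.

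**Figure D1:**
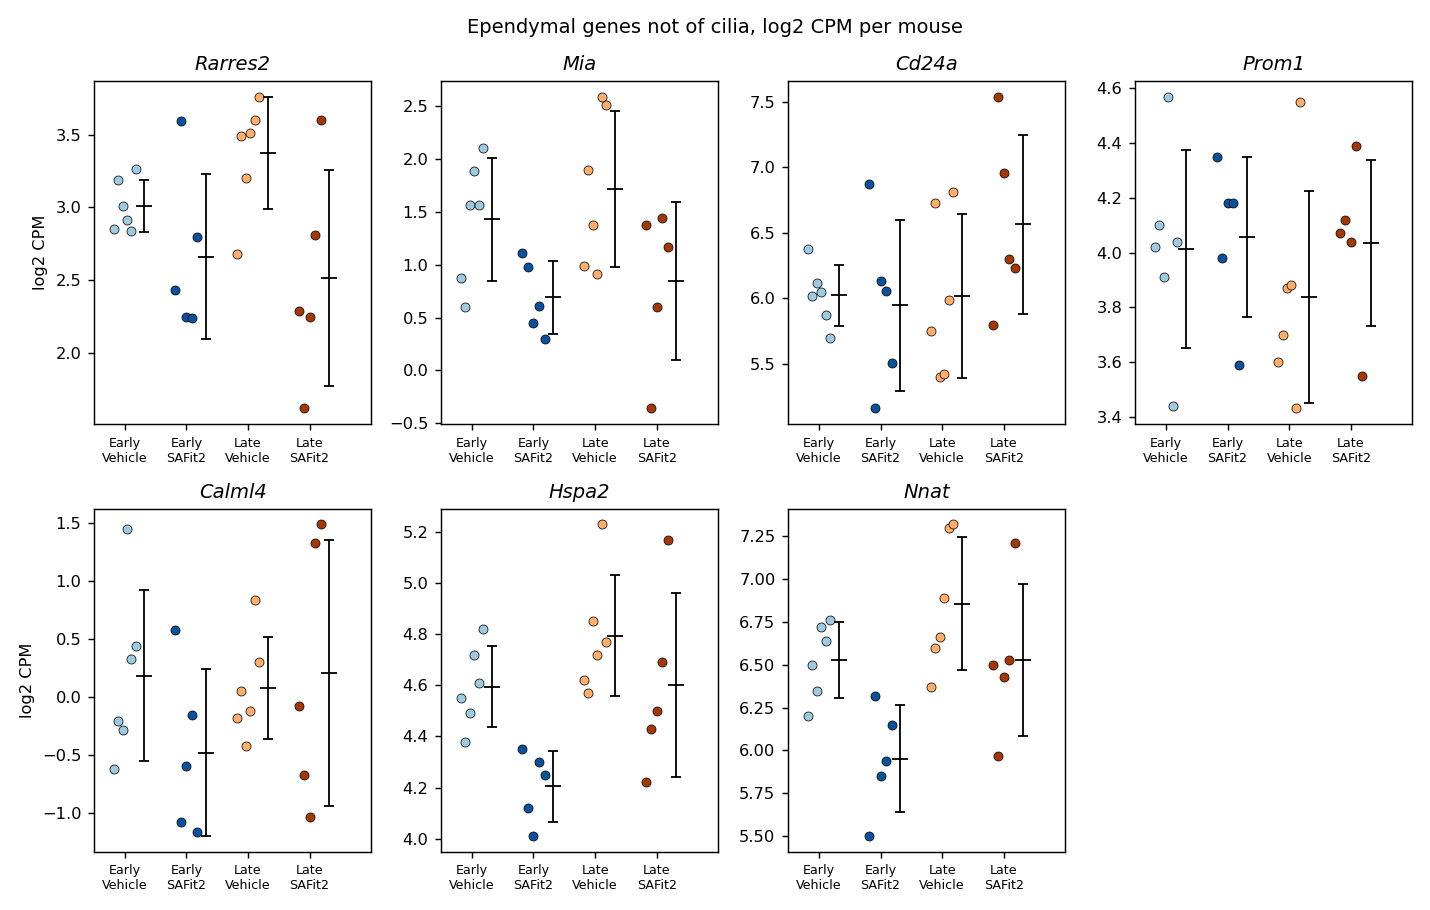
log2 CPM of each gene (vertical axis) in each mouse, by group (horizontal axis), with the group mean and SD as a bar to the right of the points. The Early SAFit2 mice lie below every Early Vehicle mouse for Hspa2 (4.01 to 4.35 against 4.38 to 4.82), whereas the groups overlap for the other genes.

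The early comparison asked whether SAFit2 given at injury onset left a mark on these genes at day 30. Nnat and Hspa2 were lower in Early SAFit2 mice at an unadjusted p under 0.05, Mia and Calml4 had negative differences of similar or larger size with more spread, and Cd24a and Prom1 lay near 0. No gene of the 16765 passed the adjusted threshold with limma (percent called 0, with 416 genes at an unadjusted p under 0.05) or with voom, and none of the 7 did.

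Hspa2 measured 4.35, 4.12, 4.01, 4.30 and 4.25 in the Early SAFit2 mice, and 4.38, 4.58 and 4.82 (lowest, median and highest) in Early Vehicle. Every treated mouse lay below every vehicle mouse. The log2 fold change was -0.39 (SE 0.15; limma p = 0.013, adjusted p = 1; exact two-sided permutation p = 0.0043). Groups that do not overlap were found for 0.352% of all genes in this comparison.

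Nnat measured 5.50, 6.32, 5.85, 5.94 and 6.15 in Early SAFit2 mice, against 6.20, 6.57 and 6.76 (lowest, median, highest) in Early Vehicle. The groups overlapped by 1 treated mouse, and all 5 treated mice lay below the vehicle mean. Its log2 fold change was -0.57 (SE 0.19; limma p = 0.005, adjusted p = 1; exact permutation p = 0.0087), a level 1.49-fold lower.

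Mia measured 1.11, 0.98, 0.45, 0.61 and 0.30 in Early SAFit2 mice and 0.60, 1.56 and 2.10 (lowest, median, highest) in Early Vehicle. Again all 5 treated mice lay below the vehicle mean, and the groups overlapped. The log2 fold change was -0.74 (SE 0.37; limma p = 0.055, adjusted p = 1; exact permutation p = 0.043).

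Rarres2 measured 2.43, 3.59, 2.25, 2.24 and 2.80 in Early SAFit2 mice and 2.84, 2.96 and 3.26 in Early Vehicle. Replicate 2 was above every vehicle mouse while the other 4 treated mice were below every vehicle mouse. The log2 fold change of -0.35 (SE 0.28; exact permutation p = 0.17) became -0.58 without replicate 2. Calml4 ran from -1.16 to 0.58 in Early SAFit2 and from -0.62 to 1.45 in Early Vehicle, a log2 fold change of -0.66 (SE 0.46; exact permutation p = 0.17). The surface genes gave -0.08 for Cd24a, with a 95% interval of -0.68 to 0.53, and 0.04 for Prom1, with an interval of -0.36 to 0.45.

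Thus 2 of the 7 members were at an unadjusted p under 0.05 and lower, beside 1.54% of all genes lower and 2.48% in either direction. Of the 68 motile cilia genes listed 67 were tested, of which 62 had negative differences and 30 were at an unadjusted p under 0.05, each of them lower. The median log2 fold change was -0.91 for motile cilia genes, -0.39 for the 7 members and 0.01 for all genes. The mean level of the cilia list ran from -0.37 to -0.05 in Early SAFit2 and from 0.10 to 1.56 in Early Vehicle. These are low levels, and the size of the cilia median shrank with a pseudocount of 2. The stricter filter, which tests fewer genes, left fewer cilia genes at that p (values in the closing section). Among 10 genes shared by ependymal cells and other glia, 10 had negative differences, none at an unadjusted p under 0.05, with a median of -0.32; Vim, an intermediate filament of these cells, gave -0.35 (SE 0.25). Choroid plexus genes, which mark another epithelium of the cerebrospinal fluid, gave a median of -0.47 over 5 genes, with 4 below 0 and the folate receptor gene Folr1 at an unadjusted p under 0.05 (-1.56). Ttr and Otx2, also listed for the choroid plexus, were not analysed. Folr1 averaged only -1.82 log2 CPM over all mice, where the floor is -3.154, and Clic6 had the positive difference (0.50). As a list the choroid plexus genes ranged from -0.65 to 0.50 in Early SAFit2 and from -0.34 to 1.11 in Early Vehicle. Averaged over both timings 5 of 5 choroid plexus genes were below 0, with a median of -0.21. Their part in the members' values was not tested. Meningeal fibroblast genes gave a median of -0.32, with 2 of 10 lower at an unadjusted p under 0.05, and averaged as a list 4.74 ± 0.30 log2 CPM (SD, n = 5) in Early SAFit2 and 5.17 ± 0.61 (SD, n = 6) in Early Vehicle. Their part in the Rarres2 values was not tested.

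The late comparison asked the same of SAFit2 given once the joint disease was established. The secreted genes were lower, Rarres2 past the adjusted threshold and Mia at an unadjusted p only, while Cd24a had a positive difference that did not pass. Rarres2 was the only member called of 7, where 12.1% of all genes were called and 6.72% were called lower. That background hung on single mice: the 2021 genes called became 1 without any of Late SAFit2 replicates 2 or 5 or Late Vehicle replicates 1, 3, 4 or 5, and 8 without Late SAFit2 replicate 4.

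Rarres2 measured 2.29, 1.62, 2.25, 2.81 and 3.60 in Late SAFit2 mice, against 2.68, 3.50 and 3.76 (lowest, median, highest) in Late Vehicle. The groups overlapped, and replicate 5 lay among the highest vehicle mice. The log2 fold change was -0.86 (SE 0.28; limma adjusted p = 0.046; exact permutation p = 0.041), a level 1.82-fold lower. The call was at the edge of the threshold: it held in 8 of the 22 fits that each left out 1 mouse, with adjusted p between 0.04 and 0.12, and without Late SAFit2 replicate 2 the log2 fold change was -0.64.

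Mia measured 1.38, -0.36, 0.60, 1.44 and 1.17 in Late SAFit2 mice and 0.91, 1.64 and 2.59 in Late Vehicle. The lowest treated value is that of the library that stood apart, with 9 reads. The log2 fold change was -0.87 (SE 0.37; limma p = 0.026, adjusted p = 0.098; exact permutation p = 0.097), and -0.57 without that mouse.

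Hspa2 ranged from 4.22 to 5.17 in Late SAFit2 and from 4.57 to 5.23 in Late Vehicle, a log2 fold change of -0.19 (SE 0.15; limma p = 0.2, exact permutation p = 0.31). Nnat ranged from 5.97 to 7.21 and from 6.37 to 7.32, a log2 fold change of -0.33 (SE 0.19; limma p = 0.092, exact permutation p = 0.21). After correction for the GC content and length of transcripts, these late values became 0.03 for Hspa2 and 0.10 for Nnat. Cd24a measured 5.80, 7.54, 6.96, 6.30 and 6.23 in Late SAFit2 and 5.40, 5.87 and 6.81 in Late Vehicle. Its log2 fold change was 0.55 (SE 0.29; limma adjusted p = 0.18; 95% interval -0.05 to 1.15), and 0.31 without replicate 2, which gave the highest value of all 22 mice. Prom1 gave 0.19 (interval -0.21 to 0.60) and Calml4 0.13 (interval -0.82 to 1.08).

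At an unadjusted p under 0.05 the late count was 2 of 7 members, each lower, beside 34.5% of all genes and 19.0% lower, so the share of members was near that of all genes. Of 67 motile cilia genes, 2 were called, both lower: Dnah11 (log2 fold change -2.23, limma adjusted p = 0.044), a dynein heavy chain, and Hydin (-1.66, adjusted p = 0.045), of the central pair. Over all genes 12.1% were called and 6.72% called lower, each a larger share than that of the cilia genes. At an unadjusted p under 0.05, 14 of the 67 were lower and 1 higher, and the share lower was near the 19.0% of all genes. The median was -0.56 for cilia genes (-0.30 without Late SAFit2 replicate 2, where 5 were at that p), -0.19 for the members and -0.05 for all genes. Of 11 regulators of ciliogenesis, 2 were called late, both lower: Foxj1 at -0.77 (limma adjusted p = 0.032) and Rfx1 at -0.97 (adjusted p = 0.033). Another 4 of the 11 had positive differences that did not pass, and the median was -0.40. Foxj1 gave 0.02 early. Groups that do not overlap made up 1.71% of all genes in the late comparison and none of the 7 members. Skeletal muscle genes ranged as a list from -1.35 to 4.55 in Late SAFit2 and from -1.69 to -0.21 in Late Vehicle, and their part in the late values was not tested.

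**Figure D2:**
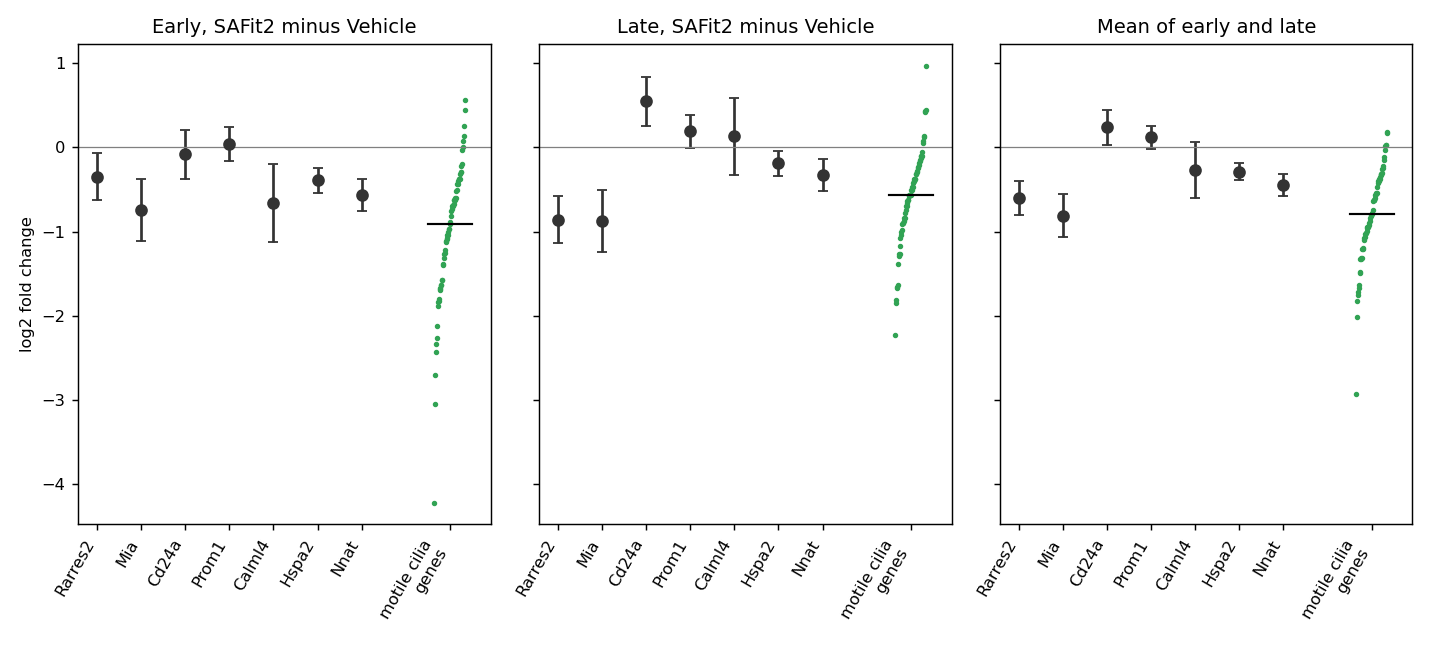
log2 fold change of SAFit2 against Vehicle (vertical axis) for the 7 members, as points with bars of 1 SE, and for the 67 motile cilia genes, as green points with their median as a line, in the early, late and averaged comparisons. The cilia medians of -0.91, -0.56 and -0.79 lie below Hspa2 and Nnat in each panel, and Cd24a and Prom1 lie near or above 0. Mia (-0.87) and Rarres2 (-0.86) lie below the cilia median in the late panel, and Mia (-0.81) in the averaged panel.

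Averaged over both timings, 4 of the 7 members fell at the unadjusted p under 0.05 used as threshold for this comparison: Mia, Rarres2, Nnat and Hspa2. Over all genes 13.2% passed and 7.18% were lower. The log2 fold change was -0.81 for Mia (SE 0.26; limma p = 0.0047, exact permutation p = 0.0061) and -0.60 for Rarres2 (SE 0.20; limma p = 0.0049, exact permutation p = 0.011). It was -0.45 for Nnat (SE 0.13; limma p = 0.0021, exact permutation p = 0.0073) and -0.29 for Hspa2 (SE 0.10; limma p = 0.0094, exact permutation p = 0.01). In the exact test mice were permuted within each timing, and the limma adjusted p was 0.33 for each of the 4. In linear terms these levels were 1.75-fold, 1.52-fold, 1.37-fold and 1.22-fold lower. Cd24a gave 0.24 (interval -0.19 to 0.66), Prom1 0.12 (interval -0.17 to 0.41) and Calml4 -0.27 (interval -0.94 to 0.41), none past the threshold. With GC content and length corrected, Mia and Rarres2 remained past the threshold while Nnat (-0.25) and Hspa2 (-0.19) did not.

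Motile cilia genes gave 39 of 67 lower and none higher by the same rule, with a median of -0.79 against -0.29 for the members and -0.02 for all genes. The paper had reported cilium-related genes among those changed by SAFit2 in these data, and many among genes changed more by early treatment. From correlations of the samples with major cell types, it held that altered cell composition did not account for the changes. The text of the paper does not name those cell types. The cilia list was chosen with earlier results known, so these counts are a description and no independent test. The 4 with the lowest p were Ccdc153 (-2.93), Cfap53 (-1.82), Dnah11 (-2.02) and Dnah6 (-1.67). Of the genes shared by ependymal cells and other glia, 1 of 10 passed, the transcription factor Nkx6-1 at -1.07, and the median was -0.11. Neuronal genes gave 7 of 12 above 0 and 5 below, with a median of 0.12. Of the 12, 3 passed, each higher: Snap25 (0.23), Map2 (0.25) and Slc17a6 (0.20). Over all genes 1011 of 16765 passed and were higher.

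The test of the early effect minus the late effect gave no call among the 7 members or over all genes with limma (percent called 0, with 4167 genes but no member at an unadjusted p under 0.05) or with voom. The estimates ran from -0.79 for Calml4 (SE 0.66; limma adjusted p = 0.45) to 0.51 for Rarres2 (SE 0.39; adjusted p = 0.42), so the timing of SAFit2 was not shown to alter any of them. By the paper's account SAFit2 was still active when Late mice were collected and no longer active in Early mice. The contrast of timings therefore also sets drug present against drug gone. Late Vehicle against Early Vehicle gave none of 7 called, against 9.11% of all genes. The differences with the lowest p were Nnat, 0.33 higher in Late Vehicle (SE 0.18; limma adjusted p = 0.26), Hspa2, 0.20 higher (SE 0.14; adjusted p = 0.41), and Rarres2, 0.36 higher (SE 0.27; adjusted p = 0.43). The group means of Nnat ordered as 5.95 in Early SAFit2, 6.53 in Early Vehicle, 6.53 in Late SAFit2 and 6.86 in Late Vehicle, and those of Hspa2 as 4.21, 4.60, 4.60 and 4.79. For both genes the ranges of the last 3 groups overlap.

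How closely each gene followed the cilia genes from mouse to mouse was examined over the 22 mice after group means were taken off, so that the treatment effect did not enter. The genes fell apart: 5 members moved with the mean of the motile cilia list and the surface genes Cd24a and Prom1 did not. The share of all genes that would pass in the same way was not computed, so the count has no background beside it. Nnat gave Pearson r = 0.81 and Spearman rho = 0.79 (permutation p adjusted over 28 relations 0.00028 and 0.0014). Mia gave r = 0.74 and rho = 0.70 (adjusted permutation p 0.0079 and 0.018), and Rarres2 r = 0.70 and rho = 0.72 (0.0007 and 0.0024). Hspa2 gave r = 0.65 and rho = 0.62 (adjusted permutation p 0.02 and 0.031), and Calml4 r = 0.64 and rho = 0.65 (0.02 and 0.021). Cd24a gave r = -0.23 and rho = -0.26 (adjusted permutation p 0.51 and 0.54), and Prom1 r = 0.13 and rho = 0.07 (0.78 and 0.85).

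Without the 2 mice farthest from the median of the cilia list, r was 0.78 for Nnat, 0.68 for Mia, 0.66 for Rarres2, 0.72 for Calml4 and 0.61 for Hspa2, whose adjusted permutation p was then 0.068. Within early mice r was 0.60 for Nnat, 0.74 for Mia, 0.26 for Rarres2, 0.41 for Calml4 and 0.58 for Hspa2, and none of the 7 passed the adjusted threshold over these 11 mice. Within late mice r was 0.90, 0.74, 0.92, 0.79 and 0.68 in the same order, and Nnat and Rarres2 passed. The difference between the early and late values of Rarres2, the widest of the 5, was not tested. Leaving out Late SAFit2 replicate 2, an alternative chosen after the data were seen, kept all 5 past the threshold, with r from 0.60 to 0.77.

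**Figure D3:**
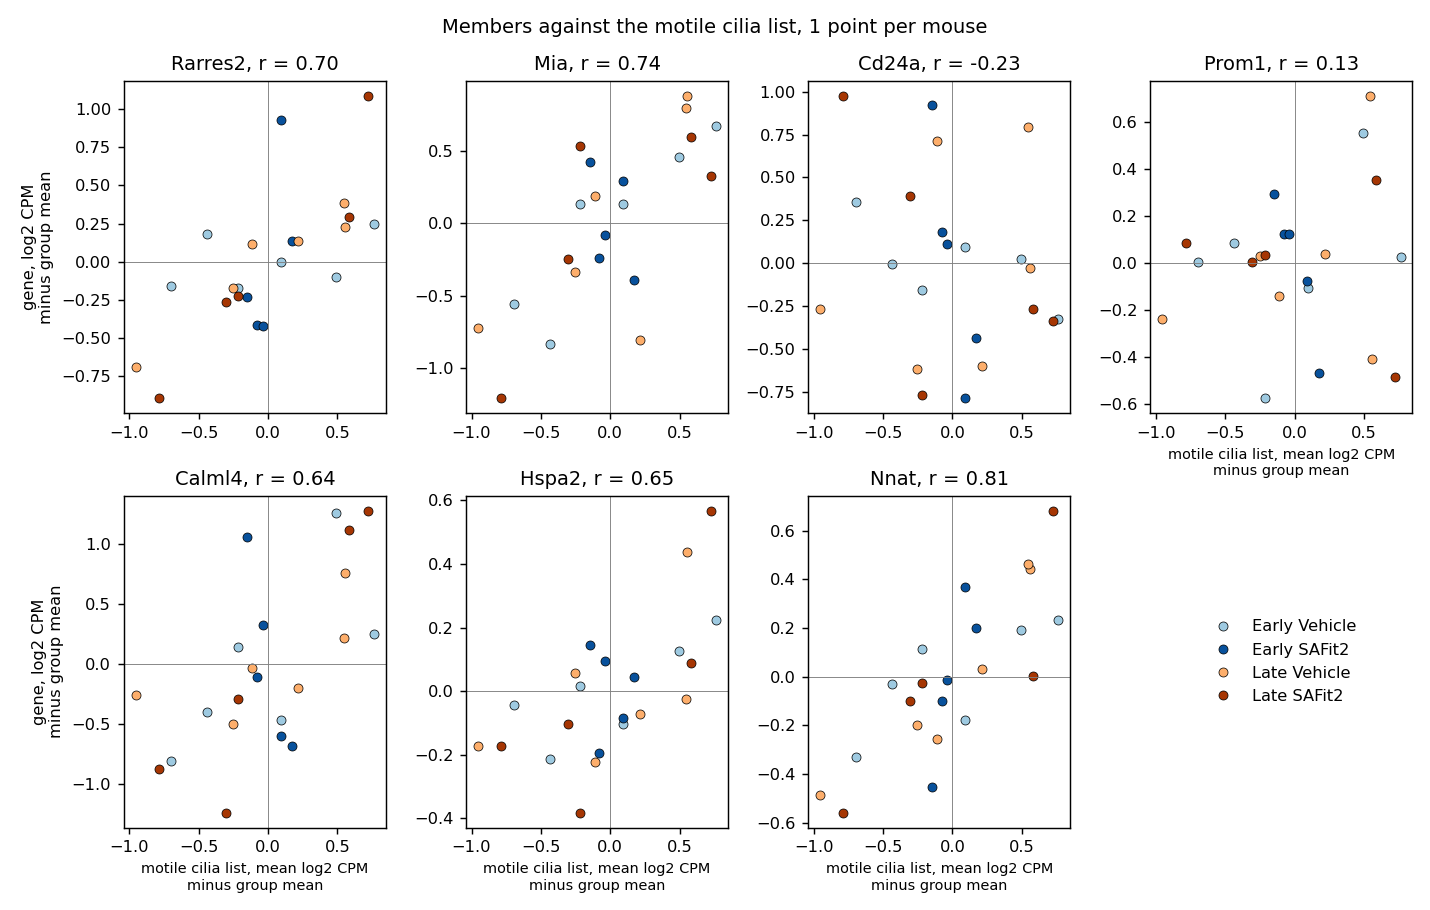
Each gene's log2 CPM minus its group mean (vertical axis) against the mean log2 CPM of the motile cilia list minus its group mean (horizontal axis), with 1 point per mouse coloured by group. Nnat (r = 0.81) rises along the diagonal, whereas Cd24a (r = -0.23) and Prom1 (r = 0.13) scatter.

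Against neuronal genes, Cd24a gave r = 0.61 and rho = 0.66 (adjusted permutation p 0.02 and 0.021). Nnat gave r = -0.68 and rho = -0.69 (adjusted permutation p 0.0073 and 0.0079), and Rarres2 r = -0.67 and rho = -0.64 (0.02 and 0.031). Without the 2 farthest mice r was 0.69, -0.60 and -0.70 in that order. Within early mice r was 0.76, -0.72 and -0.51, and within late mice 0.52, -0.68 and -0.81, none past the adjusted threshold in either set of 11. With GC content and length corrected, Cd24a kept r = 0.76, whereas Nnat gave r = -0.42 (adjusted permutation p 0.17) and Rarres2 r = -0.63 (adjusted permutation p 0.05 for r and 0.1 for rho). Prom1 gave r = 0.40 and rho = 0.32 (adjusted permutation p 0.18 and 0.46). Against meningeal fibroblast genes Rarres2 gave r = 0.57 and rho = 0.41 (adjusted permutation p 0.14 and 0.32), with r = 0.37 without Late SAFit2 replicate 2 and 0.15 without the 2 farthest mice. Mia gave r = 0.06 and rho = -0.25 over all 22 mice (adjusted permutation p 0.89 and 0.54). Without the 2 farthest mice Mia gave r = -0.61 and rho = -0.58 (adjusted permutation p 0.025 and 0.056). Without Late SAFit2 replicate 2 it gave r = -0.54 and rho = -0.58 (adjusted permutation p 0.03 and 0.035), and r was -0.73 within early and 0.28 within late mice. None of the 7 was related to astrocyte genes at the adjusted threshold. All 22 values share the scaling of their library, which enters every such relation.

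Among the members, Rarres2 and Nnat were the closest pair (r = 0.81, a description over 22 mice), followed by Calml4 with Hspa2 (0.66) and Calml4 with Mia (0.64). Cd24a and Prom1 gave 0.37 with each other, and Cd24a gave -0.40 with Nnat.

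**Figure D4:**
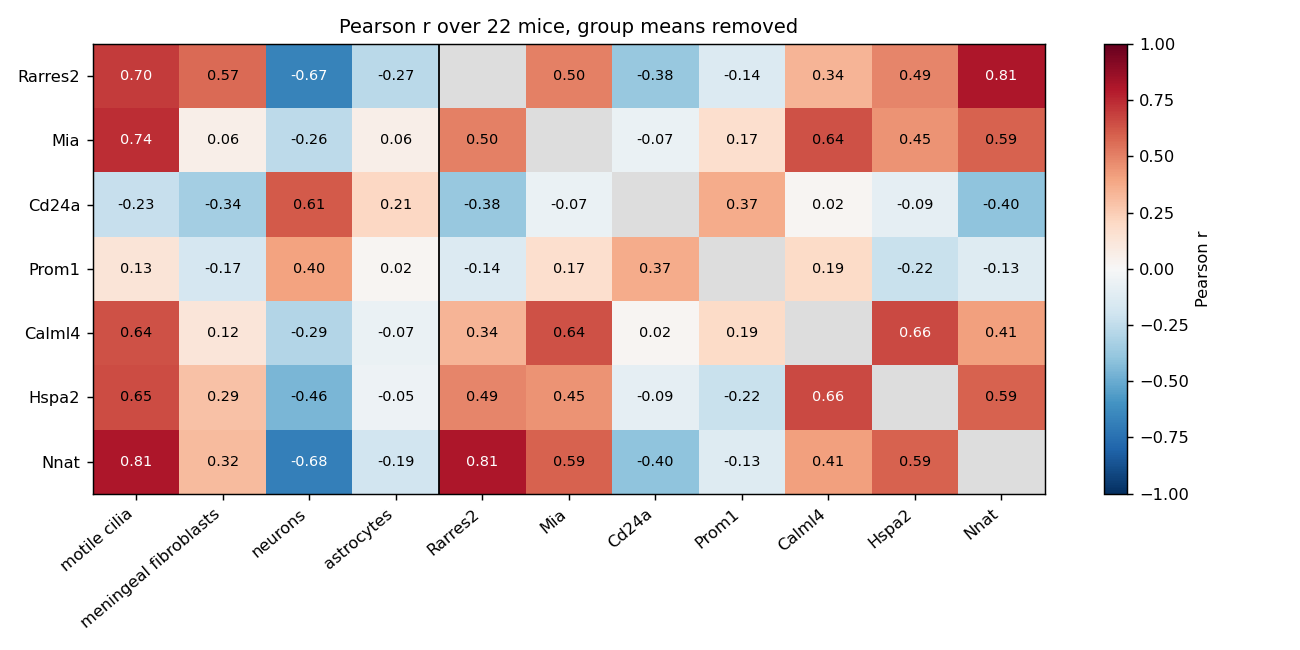
Pearson r over 22 mice, group means removed, of each member (rows) with 4 marker lists and with the other members (columns), on a colour scale from -1 to 1. The motile cilia column runs from 0.64 to 0.81 for 5 members, with Prom1 at 0.13 and Cd24a at -0.23. In the neuron column Cd24a is the highest (0.61), and Nnat (-0.68) and Rarres2 (-0.67) are the lowest.

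The genes most alike to each member were sought among 13229 genes with a mean log2 CPM of at least 1, by r over the 22 mice after group means were removed. Those of Mia were Ak7 (0.78), an adenylate kinase of the axoneme, Mns1 (0.78), a structural protein of flagella, and Kif27 (0.75), a kinesin. Calml4 was most like Tm4sf1 (0.80) and Cfap43 (0.80), a cilium and flagellum protein, then Nubpl (0.76). Nnat was most like 1700007K13Rik (0.86), the growth cone gene Gap43 (0.86) and the potassium channel gene Kcnk2 (0.82), and Rarres2 was most like Nnat (0.81), Ifitm3 (0.80) and Rnase4 (0.79). Hspa2 was most like Vwc2, Zfp825 and Poc1b (each 0.73), the last a centriolar protein. Cd24a was most like the growth factor gene Fgf1 (0.92), Stk32a (0.90) and Arhgap36 (0.90), and Prom1 like Pex7 (0.80), Smco4 (0.78) and Bin3 (0.73). Among the 100 genes most alike to each member, motile cilia genes numbered 6 for Mia and for Nnat, 3 for Rarres2 and for Hspa2, 2 for Calml4 and 0 for Cd24a and for Prom1, and these genes make up 0.174% of the genes compared.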

How the data were processed

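Directional mRNA libraries of 22 mice were sequenced by the authors, with Trimmomatic, HISAT2 and edgeR named in the submitters' processing notes, reads counted per gene on mm10 and TMM-scaled library sizes. Values were deposited as log2 CPM, 1 column per mouse, with a floor of -3.154 for genes at 0 reads. Reads worked back from the deposited log2 CPM were whole in 100.0% of cases (tolerance 0.02 reads) and gave 11352989 to 24433349 reads on genes per library, which bounds the precision of genes with few reads.

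A gene was tested where 5 or more libraries reached a log2 CPM of -1. Group means were fitted with limma 3.58.1 in R 4.3.3 with a variance trend, and p was adjusted by Benjamini-Hochberg over 16765 genes. Early and late calls needed adjusted p under 0.05 and 1.2-fold, and the average of both timings needed unadjusted p under 0.05, as in the study. Single genes were also tested by exact two-sided permutation, and relations across mice by 100000 permutations within groups. The genes named are the 7 members, of other lists the genes called (at most 4 by lowest p, otherwise the 2 of highest level, of which fewer are given), and the 3 most alike to each member. The members and lists were chosen with earlier results of these data known. Odad1, Odad2 and Odad3 stand for older symbols in the cilia list. The listed genes Mcidas, Cdc20b, Ttr, Otx2, Myh1 and Myh2 were not analysed here. Of 10 pairs of same-numbered mice, 2 had deviations correlated over 0.1 (range -0.236 to 0.317), so the numbers were not taken to pair mice. Alternatives changed filters, pseudocount, trend, weights, scaling, GC and length correction, model and mice.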

Additional observations from a re-analysis of the deposited data

How the results depend on the processing

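None of the 7 members was called early under any setting run. The late count of 1 called member became 0 with no variance trend, centring on the median gene, quantile normalization, only the 2 groups compared, and GC and length correction without or with the replicate block, and 2 with library quality weights. Leaving out 1 mouse gave 0 to 1, and Rarres2 kept its call without Early SAFit2 replicates 1, 2 or 3, Early Vehicle replicates 1, 4 or 5, or Late Vehicle replicates 2 or 6. The averaged count of 4 became 2 with GC and length correction, without or with the block, and was 4 in each fit that left out 1 mouse. Library quality weights gave 1 call in the difference of timings (Cd24a, -1.01, adjusted p = 0.017) and called Cd24a late (0.99, adjusted p = 0.0032). Over all genes, the 2021 late calls became 62 with no trend, 1231 with quantile normalization, 876 with voom, 6381 with weights, 3157 with the block and 0 with only the 2 groups compared or GC and length correction. Weights gave 13 early calls, 5083 between timings, 6396 on average and 5067 between vehicle groups, and the corrected fit 1262 on average and 2571 between vehicle groups. Centring moved the late split from 894 higher and 1127 lower to 1139 and 924, and that between vehicle groups from 552 and 975 to 1198 and 816. The cause of these changes was not tested.

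The replicate block changed no call of a member (late Rarres2 -0.80, adjusted p = 0.049). Members at an unadjusted p under 0.05 numbered 4 early with library quality weights, and late 1 with the stricter filter, the block or voom, 5 with weights, and 1 to 4 with 1 mouse left out. Motile cilia genes at that p numbered 6 early, 2 late and 7 on average with the stricter filter, which tests fewer genes, and late 7 with quantile normalization, 9 with only the 2 groups compared, 8 with GC and length correction and the block, and 5 to 22 with 1 mouse left out. The 2 late cilia calls became 0 with the stricter filter, no trend, quantile normalization, the 2 groups alone, voom and GC and length correction without or with the block, 1 with a pseudocount of 0.5, 11 with weights, and 0 to 6 with 1 mouse left out. The early cilia median was -0.36 with a pseudocount of 2.

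Signs turned with GC and length correction, and with the block added, for the late median of members (0.04, 0.10), late Hspa2 (0.03, 0.07), late Nnat (0.10, 0.21), early Cd24a (0.02, 0.04), Cd24a between vehicle groups (0.11, 0.11) and Prom1 between timings (0.01, 0.01). Centring turned Cd24a between vehicle groups (0.06). Calml4 turned late with weights (-0.27) and voom (-0.06), and between vehicle groups with weights (0.05) and quantile normalization (0.16). With 1 mouse left out, values spanned 0 for Mia between timings (-0.17 to 0.29), early Cd24a (-0.31 to 0.12), Cd24a between vehicle groups (-0.16 to 0.12), early Prom1 (-0.07 to 0.16), late Calml4 (-0.19 to 0.44) and Calml4 between vehicle groups (-0.27 to 0.15). Members related to the cilia list numbered 0 in early and 2 in late mice alone, and to neurons 0, 0 and, with GC and length correction, 1 (Cd24a; Nnat and Rarres2 were lost). The quasi-likelihood count model that was planned was not run, since the deposited unit is log2 CPM. Genes of few reads, Calml4 above all among the members and many of the motile cilia genes, limit what these libraries can resolve.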
